A study of Rattus norvegicus with 10 samples.

Results

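The loci described here were 1477 transcribed regions of rat cerebral cortex for which an assembler had built 10 or more transcript models each. In the table of messenger RNA, an assembled transcript carries the identifier MSTRG, a locus number and an isoform number, and each transcript has a row of its own. A locus was taken when at least 10 rows of that table shared its number and no row of the long non-coding RNA (lncRNA) table did. The 1477 loci were 0.537% of the 275234 assembled loci, but their 23201 rows were 6.86% of the 338223 assembled rows. The choice used the number of rows and the absence of lncRNA rows, and none of the listed FPKM values. Transcript models are built from reads, so a locus expressed mainly in a single group may owe its rows to that group. Membership therefore need not be independent of the levels and numbers compared below, which was not tested.

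The samples were cortex of male Sprague-Dawley rats, aged 8 to 9 weeks and weighing 240 ± 20 g per the labels. In 5 libraries (MCAO/R replicates 1 to 5) the middle cerebral artery had been occluded for 2 h and blood flow then restored for 24 h, a model of ischaemic stroke with reperfusion. The other group of 5 (sham replicates 6 to 10) came from sham surgery without occlusion. Whether the libraries of a group stem from different rats is not stated in the labels, so a p-value here reflects only how the libraries varied, which may be technical variation in part. The series set out to describe expression and structural variation of the coding and non-coding transcriptome in both groups.

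Most mammalian genes give rise to several transcripts. Alternative promoters, alternative splicing of exons and alternative ends of the last exon produce isoforms that can differ in the encoded protein or in their untranslated regions, and the brain is a tissue known for a large isoform repertoire. From short reads, isoforms are rebuilt by an assembler and the reads that fit several of them are divided by estimation. The level of a single isoform is therefore estimated less directly than the level of the whole locus, which is the sum of its isoforms. Levels are given in FPKM, that is fragments corrected for the length of the transcript and for the size of the library. An assembled locus has no gene name, coordinate or sequence in the sources used here, so each is called by its identifier, and the cell-type markers of cortex were not analysed here. Annotated isoforms of the same gene, where there are any, stand in the table as separate rows that nothing ties to a locus, so a share is always a share among assembled rows.

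The median locus had 13 rows and the largest had 69. The mean locus sum over the 10 libraries ran from 0.674 to 4673 FPKM, with a median of 6.96 FPKM and quartiles of 4.28 and 12.1 FPKM. Every member passed the minimum mean of 0.5 FPKM used for testing. The 260 loci with exactly 10 rows had a median sum of 5.49 FPKM and a median top isoform share of 43.8%, the top isoform share being the percentage of the locus sum held by the highest row of a library. The 307 loci with 9 rows and no lncRNA row, just outside the limit, had 5.33 FPKM and 47.7%. At the other end, 80 loci had 30 or more rows, a median sum of 10.5 FPKM and a median top isoform share of 22.2%, and in none of them did the top isoform hold a mean share of 50% or more.

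Most rows had a low level. Of the 23201 rows, 3606 (15.5%) had a mean of 1 FPKM or more and 4427 (19.1%) had a mean under 0.1 FPKM. Detection was patchy: 10020 rows (43.2%) were above 0 in every library, 34 rows were at 0 in all of them, and 13147 (56.7%) were above 0 in 1 to 9 libraries. An exact 0 in a table of FPKM can be a failed estimate as well as an absent transcript, so such rows are called listed at 0. A median member had 10.2 rows above 0 in a library, which is 75.8% of its rows, and its top isoform held 36.2% of the sum. The top isoform held 50% or more, as a mean over libraries, in 246 members (16.7%), against 84.8% of tested loci with 2 to 9 rows and no lncRNA row. In loci with 10 or more rows that also had lncRNA rows this percentage was 12.9%. It was 43.3% in loci with 9 rows and no lncRNA row and 31.2% in members with exactly 10 rows. With 2 rows the top row always holds at least 50%, and loci with 2 to 9 rows and no lncRNA row had a median of 3. The contrast with that class is therefore set in part by the number of rows. Over the 1477 loci, which share the same 10 libraries, the number of rows had a Pearson's r of 0.23 with the log2 mean sum and of -0.43 with the top isoform share. The isoform numbers had gaps: 289 members (19.6%) used every number up to their highest, 818 (55.4%) lacked 1 number, and at most 15 numbers were unused in a locus.

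The row that dominated a locus was seldom the same from library to library, also within a group. A dominant row is the row with the highest FPKM of its locus in a library. In 67 members (4.54%) a single row was dominant in all 10 libraries, and the median member had 4 different dominant rows. Any pair of MCAO/R libraries shared the dominant row in 30.1 to 38.1% of the members, with a mean of 34.1%. Pairs of sham libraries shared it in 31.8 to 40.2% (mean 34.8%), and pairs of 1 library from each group in 26.5 to 39.0% (mean 32.7%). The ranges of these 3 kinds of pair overlapped. For tested loci with 2 to 9 rows and no lncRNA row, the corresponding means were 55.8%, 57.1% and 55.2%. Those loci have fewer rows that could be dominant, so the comparison is not like for like. For tested loci with 10 or more rows that also had lncRNA rows they were 31.4%, 32.4% and 30.7%, near those of the members.

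**Figure D1:**
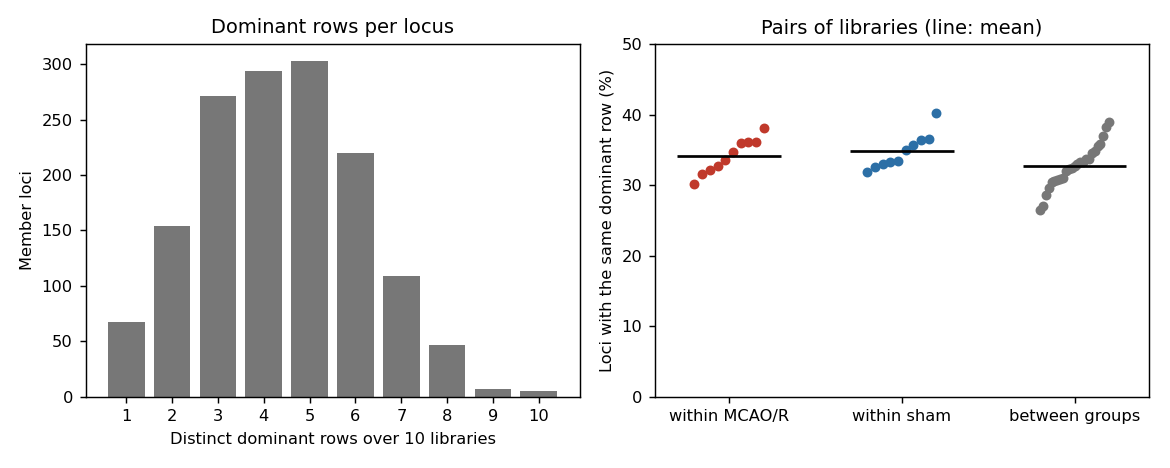
Left, the number of different dominant rows a member locus had over the 10 libraries (x axis, 1 to 10) and the number of loci (y axis). Right, the percentage of member loci with the same dominant row (y axis) for each pair of libraries within MCAO/R, within sham and between groups (dots, with a line at the mean); the 3 means lie between 32.7 and 34.8%.

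Sums were steadier than the rows they were made of. The coefficient of variation of the locus sum between replicates had a median over members of 20.3% in MCAO/R and 17.2% in sham. For the row of each locus with the highest mean over the 10 libraries, the medians were 61.1% in MCAO/R and 57.3% in sham. Around the group means, the variance of the sum was smaller than the summed variances of the rows in 1203 members (81.4%). The median ratio was 0.461, and a ratio under 1 means that the covariances between rows of a locus were, on balance, negative. In 5 loci, singled out after their values were seen, each of the 10 libraries had a different dominant row: MSTRG.152405, MSTRG.161098, MSTRG.168490, MSTRG.193379 and MSTRG.64045. In MSTRG.193379, with 12 rows and a mean sum of 36.4 FPKM, the dominant row held on average 87.7% of the sum, although it was another row each time.

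The locus with the highest sum showed the same trait. MSTRG.288019, with 14 rows, had sums of 2879, 5453, 7780, 4826 and 4978 FPKM in MCAO/R replicates 1 to 5. In sham replicates 6 to 10 the sums were 1294, 11812, 1376, 4839 and 1496 FPKM. Sham replicate 7 stood above all MCAO/R libraries, sham replicate 9 among them and the other 3 below, and the difference of 0.85 ± 0.60 (SE, log2 scale) did not pass the test (limma adjusted p = 0.348). Row 1 of this locus held 97.2% of the sum in MCAO/R replicate 2, 96.4% in sham replicate 9 and 25.1% in MCAO/R replicate 1, and was listed at 0 in the other libraries, where row 2, 3, 4 or 14 was dominant. MSTRG.296531, second in level with 12 rows, was the opposite: row 12 was dominant in all 10 libraries. Its sums were 278, 470, 469, 455 and 282 FPKM in MCAO/R and 535, 342, 441, 839 and 1219 FPKM in sham, with overlapping groups and a limma adjusted p of 0.180.

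The locus with the most rows was MSTRG.149204, with 69. It had sums of 13.2, 10.4, 8.84, 14.9 and 13.9 FPKM in MCAO/R and 6.86, 6.82, 6.31, 9.10 and 9.10 FPKM in sham. The lowest MCAO/R value, in replicate 3, lay below the highest sham values, and the other 4 lay above them. The sum rose by 0.61 ± 0.16 (SE, log2 scale, limma adjusted p = 0.0284). Between 27 and 69 of its rows were above 0 in a library: 37, 67, 69, 68 and 67 in MCAO/R and 55, 27, 36, 66 and 57 in sham, with no difference past the threshold (limma adjusted p = 0.631). MSTRG.296224, with 66 rows, had 16.4 ± 1.08 FPKM in MCAO/R and 15.7 ± 1.00 FPKM in sham (SD, n = 5 each, limma adjusted p = 0.698). Its signal was spread over many rows, the top one holding 2.33 to 4.83% in 9 libraries and 32.3% in sham replicate 6.

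The first comparison asked which of these loci were at another level after occlusion and reperfusion. Locus sums were tested on log2(FPKM + 1), a scale that understates the change of low loci, together with every other assembled locus and annotated transcript of the mRNA table. Of the 1477 members, 218 (14.8%) passed a limma adjusted p of 0.05, 133 higher and 85 lower in MCAO/R. Among all 25038 features tested the corresponding shares were 19.5% in either direction, 14.3% higher and 5.19% lower, against 9.00% and 5.75% of the members. The median log2 difference was 0.04 over the members and 0.11 over all features. In bulk tissue, fewer cells of a type and less RNA per cell cannot be told apart.

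Of the called members, 38 were at least 2-fold higher on this scale and 19 at least 2-fold lower, while 5 were at least 4-fold higher and none was 4-fold lower. Among all 25038 features, 1369 were called at least 2-fold higher and 272 at least 2-fold lower. As a plain ratio of group means in FPKM, without the pseudocount, 10 of the called members were at least 4-fold higher and none 4-fold lower. Changes past 4-fold were not counted over all features. The groups did not overlap in 183 members (12.4%, against 16.4% of all features), 102 of them among those called higher and 49 among those called lower. By level of the mean sum, the called shares were 12.3% of members against 16.3% of all features at 2 to 5 FPKM, 13.7% against 21.1% at 5 to 10 FPKM, 20.3% against 25.9% at 10 to 20 FPKM and 17.0% against 32.8% from 20 FPKM. By class of feature, 20.7% of annotated transcripts, 24.5% of loci with 1 row, 16.5% of loci with 2 to 9 rows and no lncRNA row and 14.9% of loci with 10 or more rows and lncRNA rows were called. The differences between these shares were not tested.

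The balance of higher and lower depended on how the libraries were put on a common scale. With the values as deposited, 133 members were called higher and 85 lower (61.0% of calls higher). After scaling to equal sums of the mRNA table the split was 68 and 176 (27.9%), after quantile normalization 63 and 221 (22.2%), and with factors from the annotated transcripts 55 and 270 (16.9%). Among all features, 3590 were called higher and 1300 lower as deposited. Their split was 2434 and 2113 with equal sums and 2349 and 2595 after quantile normalization. With factors from the annotated transcripts it was 2167 and 2879. These scalings moved the median log2 difference of all features from 0.11 to -0.02, -0.05 and -0.08. Relative to 11490 annotated transcripts above 0 in every library, the median of 1475 members with no sum of 0 stood at a log2 ratio of -0.15 ± 0.04 in the MCAO/R libraries and 0.08 ± 0.11 in the sham libraries (SD, n = 5 each). Under all 4 scalings 54 members were called higher and 85 lower, and no member called in one direction with the values as deposited was called in the other direction by another scaling.

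**Figure D2:**
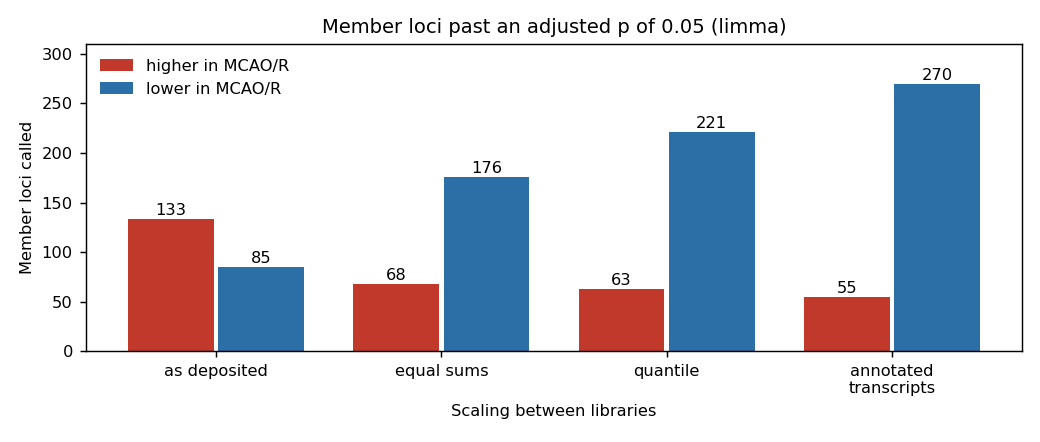
Number of member loci (y axis) whose sum was called higher or lower in MCAO/R under the values as deposited and 3 other scalings of the libraries (x axis). Calls of higher sums fall from 133 to between 55 and 68, and calls of lower sums grow from 85 to between 176 and 270.

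Single libraries also moved these counts by more than 1.5 times. Without MCAO/R replicate 1, 4 or 5 or sham replicate 7, 8 or 9, between 75 and 87 members were called higher and between 50 and 56 lower. Without MCAO/R replicate 3, 170 were called higher and 135 lower. Among all features 22.8% were called without that replicate, against 20.6% of the members, and 12.7% against 8.67% without MCAO/R replicate 1. With any single library left out, 70 members stayed called higher and 38 stayed called lower.

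On the log2(FPKM + 1) scale, the largest rises with no overlap of the groups were in MSTRG.21991 and MSTRG.91616. As a plain ratio of group means, MSTRG.188845 (12.3-fold) and MSTRG.46648 (8.99-fold), also without overlap, stood above MSTRG.91616 (8.16-fold). MSTRG.21991, with 18 rows, was close to silent in sham cortex: its sums were 0.115, 0.235, 0.324, 0.780 and 0.296 FPKM in sham replicates 6 to 10. In MCAO/R replicates 1 to 5 they were 10.9, 7.27, 5.52, 8.75 and 10.8 FPKM. Every MCAO/R library lay far above every sham library, and the sum rose by 2.82 ± 0.20 (SE, log2 scale, limma adjusted p = 4.7e-05). That scale understates the rise of MSTRG.21991: the group means of 8.64 and 0.350 FPKM are 24.7-fold apart, and the log2 difference is 3.43 with a pseudocount of 0.5 and 4.39 with 0.1. With a sham mean under 0.5 FPKM, MSTRG.21991 passed the minimum for testing only through MCAO/R. MSTRG.91616, with 10 rows, had 32.9, 17.1, 21.1, 25.4 and 34.6 FPKM in MCAO/R and 0.957, 3.85, 2.87, 5.00 and 3.39 FPKM in sham. It was present in all sham libraries, yet the lowest MCAO/R library was above the highest sham library, a rise of 2.74 ± 0.30 (SE, log2 scale, limma adjusted p = 0.000518).

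The largest falls with no overlap, on the log2(FPKM + 1) scale, were in MSTRG.192021 and MSTRG.56160. MSTRG.192021, with 11 rows, had 10.3, 5.29, 12.0, 6.48 and 5.66 FPKM in MCAO/R and 20.6, 19.5, 20.7, 23.7 and 15.3 FPKM in sham, a fall of 1.28 on the log2 scale (SE 0.22, limma adjusted p = 0.00405). Sham replicate 10 was the lowest of its group but still above MCAO/R replicate 3, the highest of the other. MSTRG.56160, also with 11 rows, had 3.35, 2.18, 6.71, 3.01 and 2.33 FPKM in MCAO/R and 8.91, 10.2, 10.6, 8.21 and 7.64 FPKM in sham, and fell by 1.24 on the log2 scale (SE 0.23, limma adjusted p = 0.00607). MCAO/R replicate 3 was closest to the sham range in both loci. These 4 loci kept their direction and stayed past the threshold under each of the 18 alternatives run, with adjusted p up to 0.0336.

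**Figure D3:**
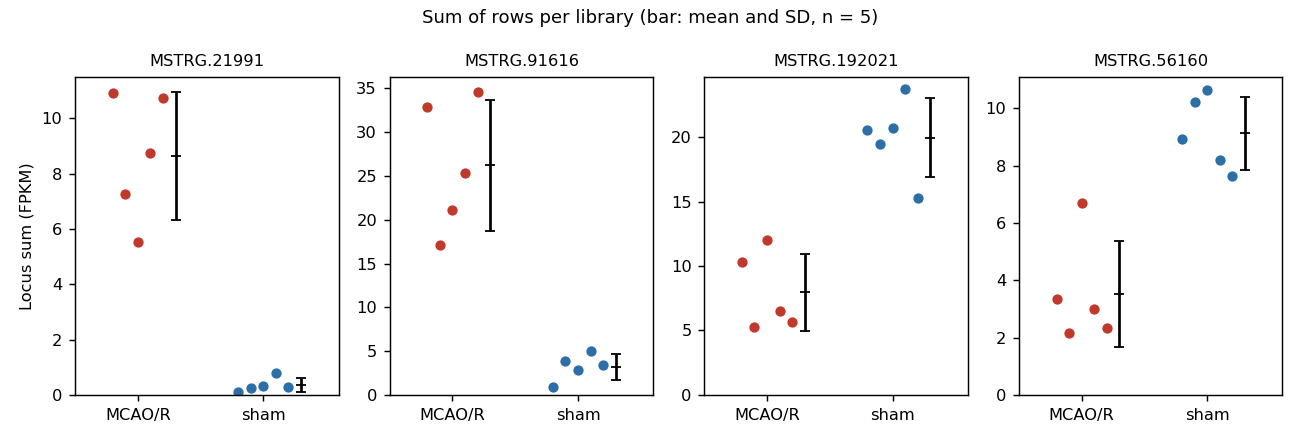
Locus sum in FPKM (y axis) in each library of MCAO/R and sham (points, with the mean and SD, n = 5) for MSTRG.21991, MSTRG.91616, MSTRG.192021 and MSTRG.56160. In the first pair every MCAO/R library lies above every sham library, and in the second pair every MCAO/R library lies below.

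The other 3 members with a rise of at least 4-fold on the log2(FPKM + 1) scale were singled out after their values were seen. MSTRG.98625, with 10 rows, had 38.7, 111, 29.4, 57.3 and 43.7 FPKM in MCAO/R and 15.5, 5.89, 5.88, 10.0 and 4.43 FPKM in sham (log2 difference 2.58 ± 0.38 SE, limma adjusted p = 0.00229). MCAO/R replicate 2 stood highest, and the groups did not overlap. MSTRG.215394, with 14 rows, had 23.6, 18.4, 10.1, 21.4 and 32.4 FPKM against 2.83, 2.45, 1.70, 4.49 and 4.46 FPKM (2.37 ± 0.30 SE, adjusted p = 0.00101). MSTRG.188845, with 22 rows, had 12.5, 1.92, 3.25, 3.86 and 8.72 FPKM against 0.757, 0.494, 0.324, 0.543 and 0.342 FPKM (2.02 ± 0.37 SE, adjusted p = 0.00596). In both loci all MCAO/R libraries were above all sham libraries, with a wide spread within MCAO/R for MSTRG.188845. The sham mean of MSTRG.188845 was 0.492 FPKM, so this locus too passed the minimum of 0.5 FPKM for testing only through MCAO/R.

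Whether more isoforms were present was asked next, by the number of rows of a locus above 0 in each library. Of the 1449 members whose number varied, 8 (0.552%) passed a limma adjusted p of 0.05, 7 higher and 1 lower in MCAO/R. Among all 8861 loci tested, 0.564% passed in either direction, 0.474% higher and 0.0903% lower. The members' share was near that background. At an unadjusted p of 0.05, 150 members (10.4%) passed, against 9.74% of all loci. The mean number was higher in MCAO/R in 758 members, lower in 579 and equal in 140. Over members, the difference in number and the difference in log2 sum had a Pearson's r of 0.47 (Spearman's rho 0.42), both coming from the same rows and libraries. Among the 133 members with a higher sum, the mean number was higher in 110 and lower in 17. Among the 85 with a lower sum it was lower in 56 and higher in 21.

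MSTRG.46648, with 16 rows, had the largest rise in number without overlap. It had 13, 15, 10, 14 and 11 rows above 0 in MCAO/R and 7, 4, 6, 5 and 9 in sham, a rise of 6.4 ± 1.07 rows (SE, limma adjusted p = 0.0204). Its sum rose too, from 0.733, 0.766, 0.296, 0.567 and 0.425 FPKM in sham to 6.10, 6.58, 1.12, 5.89 and 5.35 FPKM in MCAO/R (adjusted p = 0.00506). With a sham mean of 0.557 FPKM, this locus reached the minimum of 1 FPKM for naming only through MCAO/R. MSTRG.160808, with 17 rows, had 14, 11, 15, 13 and 15 against 8, 9, 9, 7 and 7 rows, a rise of 5.6 ± 0.82 rows (limma adjusted p = 0.00998). In both loci every MCAO/R library had more rows above 0 than every sham library. MSTRG.73183, with 11 rows, was the only called fall, with 6, 5, 6, 6 and 6 rows above 0 in MCAO/R and 9, 8, 9, 8 and 9 in sham (2.8 rows fewer, SE 0.42, limma adjusted p = 0.0117). Its sum did not differ past the threshold, at 7.95, 7.08, 3.06, 8.83 and 5.53 FPKM against 7.49, 5.56, 4.06, 4.48 and 4.63 FPKM (adjusted p = 0.567).

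The other called rises, singled out after their values were seen, were in MSTRG.52162 (11.4 against 6.8 rows), MSTRG.14760 (11.2 against 7), MSTRG.21991 (10 against 2.4), MSTRG.18939 (10.4 against 7.4) and MSTRG.92321 (8 against 5.4), given as group means. In MSTRG.21991 the numbers were 14, 11, 4, 9 and 12 in MCAO/R and 1, 2, 3, 4 and 2 in sham, so the groups met at 4 rows. In 6 of the 8 loci the sum was called higher as well, the exceptions being MSTRG.73183 and MSTRG.18939. The calls depended on what counted as present: with rows of at least 0.1 FPKM 16 members were called higher and 1 lower, and with rows of at least 5% of the sum, or with an effective number of isoforms, none was called (125 and 126 at an unadjusted p of 0.05). With rows of at least 0.1 FPKM, 1.16% of members were called, against 0.947% of all loci tested. Leaving out 1 library gave 2 to 10 members higher and 1 to 4 lower. Without MCAO/R replicate 3, 0.966% of members and 0.704% of all loci were called. MSTRG.46648 lost its call without MCAO/R replicate 1, 2 or 4 or sham replicate 7, 8 or 9 (limma adjusted p 0.0563 to 0.0676). MSTRG.73183 lost its call with rows of at least 0.1 FPKM (limma adjusted p = 0.488), where the fall called was in another member.

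**Figure D4:**
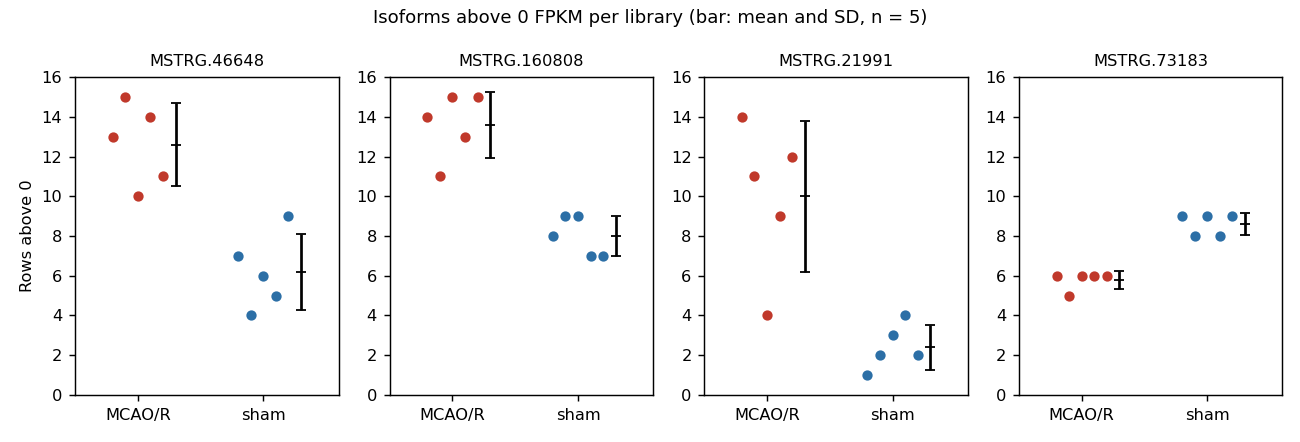
Number of rows above 0 FPKM (y axis) in each library of MCAO/R and sham (points, with the mean and SD, n = 5) for MSTRG.46648, MSTRG.160808, MSTRG.21991 and MSTRG.73183. The groups meet at 4 rows in MSTRG.21991 and do not overlap in the others.

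No member passed the test of the share held by the top isoform. With limma, 0 of 1477 members passed an adjusted p of 0.05, against 0.0695% of all 10079 loci tested, and 102 (6.91%) passed an unadjusted p of 0.05, against 7.7% of all loci. The mean share was higher in MCAO/R in 773 members and lower in 704. The smallest adjusted p was that of MSTRG.14760, at 0.0623. Its top row held 20.1, 20.5, 30.1, 24.6 and 24.3% in MCAO/R and 41.7, 63.1, 52.4, 56.7 and 69.9% in sham. The groups did not overlap, and the mean share was 32.9 points lower in MCAO/R (SE 5.12). MSTRG.237279 followed, with 36.7, 39.9, 47.1, 54.1 and 40.7% against 69.5, 70.6, 86.2, 83.6 and 72.0% (limma adjusted p = 0.114). In MSTRG.21991, where few rows were above 0 in sham, the top row held 56.9, 66.8, 59.0, 65.5 and 32.8% against 100, 86.2, 92.8, 96.3 and 93.9% (limma adjusted p = 0.138). These last 2 loci and MSTRG.14760 were singled out after their values were seen.

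Testing the share of each row found a single member row. Of the 9598 member rows with a mean share of at least 5%, 1 (0.0104%) passed a limma adjusted p of 0.05, against 0.0143% of all 41869 rows tested, and 495 (5.16%) passed an unadjusted p of 0.05, against 6.26% of all rows. The row was isoform 16 of MSTRG.68958, a locus with 18 rows. It held 46.4, 51.5, 42.4, 54.0 and 50.4% of the locus sum in MCAO/R replicates 1 to 5 and was listed at 0 in all 5 sham libraries. Its levels in MCAO/R were 5.25, 5.34, 2.81, 5.80 and 4.77 FPKM. The share rose by 48.9 points (SE 4.51, limma adjusted p = 0.0138). Listed at 0 in sham, the row passed the minimum mean share of 5% only through MCAO/R. Its spread also came from MCAO/R alone (SD 4.55 points, against 0 in sham). Without sham replicate 6 or 10 the adjusted p was 0.0519 or 0.0762, and no member row was called.

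Isoform 16 was the dominant row of MSTRG.68958 in every MCAO/R library. In sham replicates 6 to 10 the dominant rows were isoforms 17, 11, 3, 6 and 9, a different one each time. Isoform 6 was present in both groups, with 27.1, 20.4, 22.4, 21.1 and 13.3% of the sum in MCAO/R and 34.3, 13.4, 29.3, 47.7 and 31.4% in sham. The locus sum was 11.3, 10.4, 6.63, 10.8 and 9.47 FPKM in MCAO/R and 5.65, 6.05, 6.28, 8.33 and 9.45 FPKM in sham, and did not pass the test (limma adjusted p = 0.136). In MSTRG.68958 the share of isoform 16 differed between groups without overlap, while the share of isoform 6 and the sums overlapped.

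**Figure D5:**
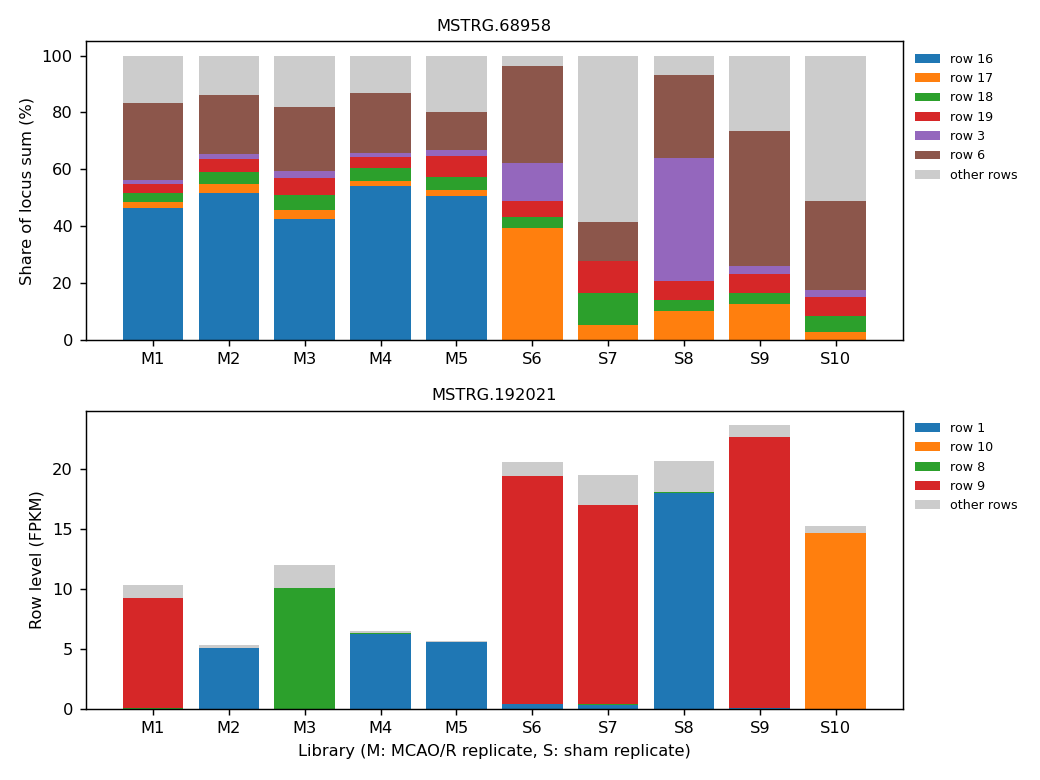
Top, the share in percent of the locus sum (y axis) held by the rows of MSTRG.68958 in each library (M1 to M5, MCAO/R; S6 to S10, sham); isoform 16 holds 42.4 to 54.0% in MCAO/R and is listed at 0 in sham. Bottom, the level in FPKM (y axis) of the rows of MSTRG.192021 in the same libraries; a single row makes up most of each bar, and it is not the same row in each library.

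MSTRG.192021, whose sum fell, was the member whose top row held the highest mean share, 92.0%, with 92.9 ± 6.06% in MCAO/R and 91.2 ± 4.87% in sham (SD, n = 5). That row was isoform 9 in MCAO/R replicate 1 (9.26 FPKM) and in sham replicates 6, 7 and 9 (19.1, 16.6 and 22.6 FPKM). It was isoform 1 in MCAO/R replicates 2, 4 and 5 (5.08, 6.28 and 5.54 FPKM) and in sham replicate 8 (18.0 FPKM). Isoform 8 took its place in MCAO/R replicate 3 (10.0 FPKM) and isoform 10 in sham replicate 10 (14.7 FPKM). Whichever row carried the signal, it was higher in each sham library than in any MCAO/R library.

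Of the 23201 rows, 41 were above 0 in all 5 libraries of a group and listed at 0 in all 5 of the other. That is 0.177%, against 0.313% of all 338223 assembled rows and 0.157% of the rows of loci with 2 to 9 rows and no lncRNA row. MCAO/R held 33 of the 41, in 25 loci (0.142%, against 0.233% of all assembled rows), and sham held 8, in 6 loci (0.0345%, against 0.0795%). Most were low: 8 of the 33 and 1 of the 8 had a median of 1 FPKM or more in their group. After isoform 16 of MSTRG.68958, the ones with the highest shares, singled out after their values were seen, were row MSTRG.150733.4 and row MSTRG.218717.10. MSTRG.150733.4 was at 1.75, 0.830, 3.03, 5.26 and 3.26 FPKM in MCAO/R, which was 15.0, 9.23, 66.4, 60.4 and 48.5% of its locus. MSTRG.218717.10 was at 3.98, 2.79, 1.35, 5.23 and 6.39 FPKM, or 36.9, 34.9, 12.9, 58.1 and 55.7%, in a locus whose sum did not differ past the threshold (limma adjusted p = 0.477). MSTRG.282855.1 had the highest median, 8.14 FPKM, yet held only 0.989 to 10.9% of a locus whose sum fell by 0.41 on the log2 scale (limma adjusted p = 0.0313). The sham row with the highest median, MSTRG.95905.6, was at 1.05, 1.12, 0.00252, 1.48 and 0.663 FPKM.

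Testing each row as deposited, an alternative chosen after seeing the data, found fewer loci than testing sums. Of the 7573 member rows whose mean reached 0.5 FPKM, 140 (1.85%) passed a limma adjusted p of 0.05, against 6.01% of all 43088 rows. Of these, 87 were higher (4.73% of all rows were) and 53 lower (1.29% of all rows). The 140 rows lay in 107 of the 1372 loci with a row tested: 63 with rows called higher only, 39 with rows called lower only and 5 with both. In 50 of the 107 loci the sum was not called, and in 161 members the sum was called and no row was. Over all 1477 members, the sum was called in 218 (14.8%). Sums and rows come from the same values.

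The 5 loci with rows called in both directions were MSTRG.150733, MSTRG.157420, MSTRG.17069, MSTRG.235244 and MSTRG.66406, all singled out after their values were seen. In MSTRG.66406, with 10 rows, isoforms 3, 2 and 4 rose by 2.61, 2.33 and 2.01 on the log2 scale, and isoforms 8, 7 and 5 fell by 0.73, 1.24 and 1.65. Isoform 3 went from 0.362, 0.194, 0.237, 0.451 and 0.494 FPKM in sham to 5.59, 21.3, 4.85, 6.45 and 4.72 FPKM in MCAO/R, without overlap. Isoform 5 was at 5.80, 4.15, 2.65, 3.15 and 3.84 FPKM in sham and at 0.506, 0, 0.774, 1.23 and 0.437 FPKM in MCAO/R, again without overlap. MCAO/R replicate 2 differed from the rest of its group, with isoform 3 at 79.7% of the sum while the top row of the others held 27.4 to 31.3%. The sum of MSTRG.66406 was 29.4, 26.8, 38.3, 48.7 and 36.3 FPKM in MCAO/R and 15.0, 17.0, 16.4, 18.1 and 18.6 FPKM in sham, a rise of 1.01 ± 0.15 (SE, log2 scale, limma adjusted p = 0.00258).

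MSTRG.235244, with 13 rows, had rows called in both directions and a sum that was not called. Its isoform 6 was at 3.83, 3.46, 3.89, 5.94 and 3.34 FPKM in MCAO/R and 10.7, 12.4, 6.64, 12.7 and 9.92 FPKM in sham (log2 difference -1.17, limma adjusted p = 0.0111). Isoform 5 was at 6.15, 4.79, 7.68, 3.83 and 3.96 FPKM against 4.86, 1.18, 0.438, 0.973 and 1.02 FPKM (1.38, limma adjusted p = 0.0499), with overlap through sham replicate 6. The sums, 41.1, 52.0, 45.9, 49.0 and 48.1 FPKM against 56.2, 56.3, 53.5, 53.4 and 50.2 FPKM, did not differ past the threshold (limma adjusted p = 0.142). In MSTRG.157420 isoform 11 was listed at 0 in all sham libraries and in MCAO/R replicate 3, and was at 2.38, 2.85, 3.53 and 2.36 FPKM in MCAO/R replicates 1, 2, 4 and 5.

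A test of unequal change among the rows of a locus (limma diffSplice, also chosen after seeing the data) passed in 37 of 1221 members (3.03%), against 2.15% of all 6477 loci tested. The sum was not called in 24 of the 37, was higher in 10 and lower in 3. Of the 1221 members given this test, the sum was called in 187. The difference between these shares was not tested. The smallest adjusted p-values were those of MSTRG.66406 (4.38e-06) and MSTRG.68958 (6.72e-06). In MSTRG.235244 it was 0.000165. For its variance, diffSplice pools the rows of a locus as if they were independent, although such rows share reads that are divided by estimation. These p-values may therefore be too small.

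Switches of the dominant row were counted last, with no test. By group means, the dominant row differed between MCAO/R and sham in 689 members (46.6%), against 34.0% of all assembled loci with 2 or more rows, 30.4% of those with 2 to 9 rows and no lncRNA row, and 45.5% of those with 10 or more rows and lncRNA rows. Loci with few rows have fewer rows that could be dominant, and those with 9 rows and no lncRNA row were at 44.6%. In no member was a row dominant in all 5 MCAO/R libraries and another row in all 5 sham libraries; 7 loci of the whole table met this condition, 6 of them with 2 to 9 rows and no lncRNA row. Among the 492 members with at most 3 different dominant rows over the 10 libraries, 108 switched by group means. In MSTRG.68958 isoform 16 was dominant throughout MCAO/R, but the dominant row of the locus changed from library to library in sham.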

How the data were processed

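Ribosome-depleted RNA of 10 cortex libraries, 5 MCAO/R and 5 sham, was measured. The authors deposited FPKM values for mRNA (364224 rows, 26001 annotated) and lncRNA (31183 rows, 21955 loci). Per the labels, RNA came from TRIzol extraction (1.5 µg per library), Ribo-Zero depletion and a directional NEBNext Ultra kit, and the build, per the submitters' processing notes, was Rnor_5.0. Not given in the sources used here: aligner, assembler and quantifier. FPKM keeps no read totals, so depth is unknown and no counting interval is given.

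Rows were summed to loci. Features averaging 0.5 FPKM or more were tested two-sided by limma 3.58.1 in R 4.3.3 (eBayes with trend, no term besides the group). P-values were adjusted by Benjamini-Hochberg over all features, with a threshold of 0.05. The quantities tested were log2(sum + 1), rows above 0, top isoform share, and shares of rows with a mean of at least 5%. Means for these minima were taken over all 10 libraries, so a locus or row could pass through a single group. A library with a locus sum of 0 was left out of that locus's share fits (1 member in MCAO/R replicate 3, 2 in sham replicate 8). The fits were tested on simulated data, where false calls made up a larger share of the calls than the threshold names. Named loci or rows were, for each quantity tested, up to 2 largest rises and 2 largest falls among called members with a mean of at least 1 FPKM and no overlap, and also the 2 highest loci and the 2 with most rows. All others were singled out after their values were seen. Members, lists and tests were chosen with earlier results of these data known. Alternatives varied pseudocount, filter, scaling, trend, definition of presence and share, and left out each library. No identifier matched the rat gene table used here, so gene names, coordinates, sequences and cell-type markers were not analysed here.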

Additional observations from a re-analysis of the deposited data

Results flagged for a closer look

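A single library stood apart from the other 4 of its group, by Dixon's criterion for 5 values, in 8 of the 81 groups of values checked. Chance marks about 1 in 20 groups of continuous values, a rate that need not hold for numbers of rows, which are 4 of the 8. In 2 of these the other 4 libraries were tied and 1 row away. MCAO/R replicate 3 had the lowest sum of MSTRG.46648 in its group (1.12 FPKM, the nearest 5.35) and the highest of MSTRG.56160 (6.71 FPKM, the nearest 3.35). In MCAO/R replicate 1, 37 rows of MSTRG.149204 were above 0 (the nearest library had 67), and the median sum over all members was 7.50 FPKM (the nearest 6.87 FPKM). In MCAO/R replicate 2, 5 rows of MSTRG.73183 were above 0, against 6 in each other library of the group. In sham replicate 7, 10 rows of MSTRG.192021 were above 0 (the nearest 7). In sham replicate 6, 4 rows of MSTRG.91616 were above 0, against 5 in each other sham library, and the top row of MSTRG.296224 held 32.3% of the sum (the nearest 3.69%).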

How the results depend on the processing

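For the locus sum (133 members higher, 85 lower), the direction and threshold of the 4 named loci held under the 18 alternatives, and pseudocounts of 0.1 and 0.5 and the fit without a trend kept the counts within 1.5 times. The counts were 61 and 29 with a mean of at least 0.1 FPKM, 29 and 8 with no filter (more features enter the adjustment), 68 and 176 with equal sums, 63 and 221 after quantile normalization, and 55 and 270 when the annotated transcripts set the factors. With a mean of at least 0.1 FPKM 6.09% of members and 3.42% of all features were called, and with no filter 2.51% and 0.491%. Leaving out 1 library gave 75 to 170 higher and 50 to 135 lower. Testing rows as deposited called 107 loci against 218 by sums. For the number of isoforms (7 and 1), rows of at least 0.1 FPKM gave 16 and 1, rows of at least 5% of the sum 0 and 0, the effective number 0 and 0, a mean sum of at least 2 FPKM 4 and 1, no trend 2 and 1, and leaving out 1 library 2 to 10 and 1 to 4. For the top isoform share (0 and 0), a row fixed over the libraries gave 2 and 0, log2 odds 0 and 1, no trend 0 and 1, an adjusted p of 0.1 (chosen after seeing the data) 0 and 1, and leaving out 1 library 0 to 1 in each direction. For isoform shares (1 and 0), log2 odds gave 10 and 6, a mean sum of at least 2 FPKM 2 and 0, no trend 2 and 1, an adjusted p of 0.1 3 and 1, and leaving out 1 library 0 to 3 and 0 to 1; diffSplice called 37 loci against 1. Switches by group means numbered 698 to 735 with 1 library left out, and switches in every library 0 to 1 (1 without MCAO/R replicate 3 and 1 without MCAO/R replicate 5). The log2 odds of isoform shares called 0.167% of member rows, against 0.136% of all rows tested. Except where fewer libraries or more features enter, the cause of differences between settings was not tested. No paired analysis was possible because the groups share no replicate number. Depth is unknown, so no limit of detection can be given for rows listed at 0.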
